A study of Rattus norvegicus with 12 samples.

Results

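RNA sequencing of rat renal cortex measured 10 genes of heat shock and cold-inducible proteins, taken by gene name from the 13151 genes of the table. They were Hspa8, Hsp90aa1, Hsph1, Dnajb1, Dnaja1, Hspb1, Hspd1 and Hspe1, which encode heat shock proteins, and Cirbp and Rbm3, which encode RNA-binding proteins induced by cold. All 10 were in the table and all 10 passed the filter on low values. The rats were male and 32 weeks old, with 4 rats in each of 3 groups. Zucker lean (ZL) rats were the lean controls. Zucker fatty (ZF) rats carry a defect of leptin signalling throughout life and become obese. The ZF-SGLT2i group consisted of ZF rats given canagliflozin, an inhibitor of the sodium–glucose cotransporter SGLT2, in the diet at 10 mg/kg/day for 8 weeks from the age of 24 weeks. The paper describes ZL rats only in a time-course experiment, with kidney biopsies before 32 weeks. Treated rats came from a separate experiment on ZF rats, with no biopsy described. The sequencing figure's legend gives untreated ZF rats the name used in that treatment experiment. In comparisons with ZL, any part of experiment or biopsy cannot be told apart from that of the group and was not tested. Whole cortex was sequenced, so a change can come from fewer cells of a type or from less RNA per cell, and these cannot be told apart. Markers of cortex were present in every group, among them Lrp2 of the proximal tubule, Umod of the thick limb and Podxl of podocytes. Between 8824980 and 12210257 reads per rat fell on genes.

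Heat shock proteins are chaperones that hold, fold or disaggregate other proteins. Heat shock factor HSF1, held inactive by Hsp90 and Hsp70 in unstressed cells, binds heat shock elements in their promoters when unfolded proteins accumulate, and raises their transcription. CIRBP and RBM3 respond in the opposite direction to temperature: their transcripts rise with mild cooling and fall with heating, and in peripheral tissues both follow the daily rhythm of body temperature. In the kidney, chaperones are most studied in tubule cells, which carry a heavy load of transport and mitochondrial work.

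The promoters are shown first because heat shock elements are what the heat shock genes share. RefSeq windows of build GRCr8, from 250 bases before to 50 bases after the annotated gene start, were matched to 9 of the 10 genes, with Hsp90aa1 the one not matched. Each window was searched on both strands for the heat shock element pairs GAANNTTC and TTCNNGAA, which overlap where 3 units follow each other, for the cold response element TCCCCGCC and for the E-box CACGTG. One or other heat shock pair lay in 15.9% of all 33469 windows and both in 1.51%. All 7 heat shock genes with a window held at least 1 pair, and Cirbp and Rbm3 held none. The elements are printed below 5′ to 3′ on the strand of the gene, with the element in capitals. The Dnaja1 element lies after the gene start and the others before it, and a second match in Hsph1, Dnajb1, Dnaja1 and Hspb1 is left out.
Hspa8, chr8:50080295-50080319, plus strand: gagcgtGAAAGTTCCAGAAcgctgc
Hspa8, chr8:50080453-50080477, plus strand: gaacccTTCTGGAAGGTTCtaagac
Hsph1, chr12:10427326-10427350, plus strand: cgcagaTTCTGGAAAGTTCtcctca
Dnaja1, chr5:60638407-60638431, plus strand: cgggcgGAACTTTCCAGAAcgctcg
Dnajb1, chr19:41431139-41431158, minus strand: ggggcgGAAGGTTCtggagg
Hspb1, chr12:26432417-26432436, minus strand: actagaGAAGTTTCcagatg
Hspd1, chr9:64084256-64084285, minus strand: ggggccTTCCGGAAGGTTCTAGAAccgagc
Hspe1, chr9:64084256-64084285, plus strand: gctcggTTCTAGAACCTTCCGGAAggcccc
Hspd1 and Hspe1 lie head to head, their windows shared 211 bases, and the element printed for both is the same stretch read from its 2 strands. The cold response element, present in 4.79% of all windows, was found in Cirbp and not in Rbm3. The E-box, present in 6.42%, was found among the 9 windows only in Hsph1. A match is a stretch of letters and does not show that a factor was bound in these kidneys. The Cirbp stretch with the cold response element in capitals is as follows.
Cirbp, chr7:10189626-10189725, minus strand: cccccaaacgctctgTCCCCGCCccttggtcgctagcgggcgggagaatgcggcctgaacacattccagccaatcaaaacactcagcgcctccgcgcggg

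The first question was how these genes differed between obese and lean rats. Both cold-inducible genes were higher in ZF than in ZL, and 5 of the 8 heat shock genes were lower: Hsp90aa1, Hsph1, Dnaja1, Hspd1 and Hspe1. So 7 of the 10 passed the test, against 18.8% of the 11633 genes tested. By direction, 8.19% of all genes were called higher and 10.6% lower. The same 7 genes were those whose groups did not overlap, against 19% of all genes. The 10 genes had a median log2 fold change of -0.30 and all genes one of -0.01. Levels are CPM, read counts divided by library size, scaled between libraries by TMM factors. Log2 fold changes are on the log2(level + 1) scale, and adjusted p-values are from limma with Benjamini-Hochberg adjustment over all genes tested. Differences written as a multiple, or as a share of the ZL mean, are ratios of group mean levels without the added 1. The scale is not per length, so levels are compared between rats and not between genes.

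Rbm3 encodes a glycine-rich RNA-binding protein that supports translation in the cold. Its level was 37.6, 37.5, 38.6 and 35.5 in the 4 ZL rats and 56.3, 53.1, 52.4 and 48.3 in the 4 ZF rats. In the ZF-SGLT2i rats it was 80.3, 75.9, 65.0 and 66.6. The 3 groups therefore stood in the order ZL, ZF, ZF-SGLT2i with no overlap between neighbours. The means were 37.3 ± 1.3, 52.5 ± 3.28 and 71.9 ± 7.36 (SD, n = 4 each). Rbm3 was 1.41-fold higher in ZF than in ZL (log2 fold change 0.48, SE 0.07, adjusted p = 0.001). It was 1.37-fold higher again in ZF-SGLT2i than in ZF (0.44, SE 0.07, adjusted p = 0.0055). Across the 22 alternative analyses, the adjusted p of the latter comparison reached at most 0.029.

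Cirbp encodes the cold-inducible RNA-binding protein, which binds and stabilises transcripts and has been tied to the amplitude of clock gene rhythms. Its level was 49.4, 44.3, 43.7 and 34.3 in ZL and 55.6, 57.5, 51.3 and 55.9 in ZF. In ZF-SGLT2i it was 61.3, 71.7, 68.2 and 78.3. These groups too did not overlap, and the gap between the highest ZL rat and the lowest ZF rat was narrow. The means were 42.9 ± 6.30, 55.1 ± 2.67 and 69.9 ± 7.06 (SD, n = 4 each). The log2 fold change was 0.36 (SE 0.10, adjusted p = 0.023) in ZF against ZL. That call was lost when ZF rat 2 was left out (adjusted p = 0.054), and likewise for ZF rat 3 (0.065) and ZF rat 5 (0.051). In ZF-SGLT2i against ZF it was 0.33 (SE 0.10), and the adjusted p of 0.092 did not pass.

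**Figure D1:**
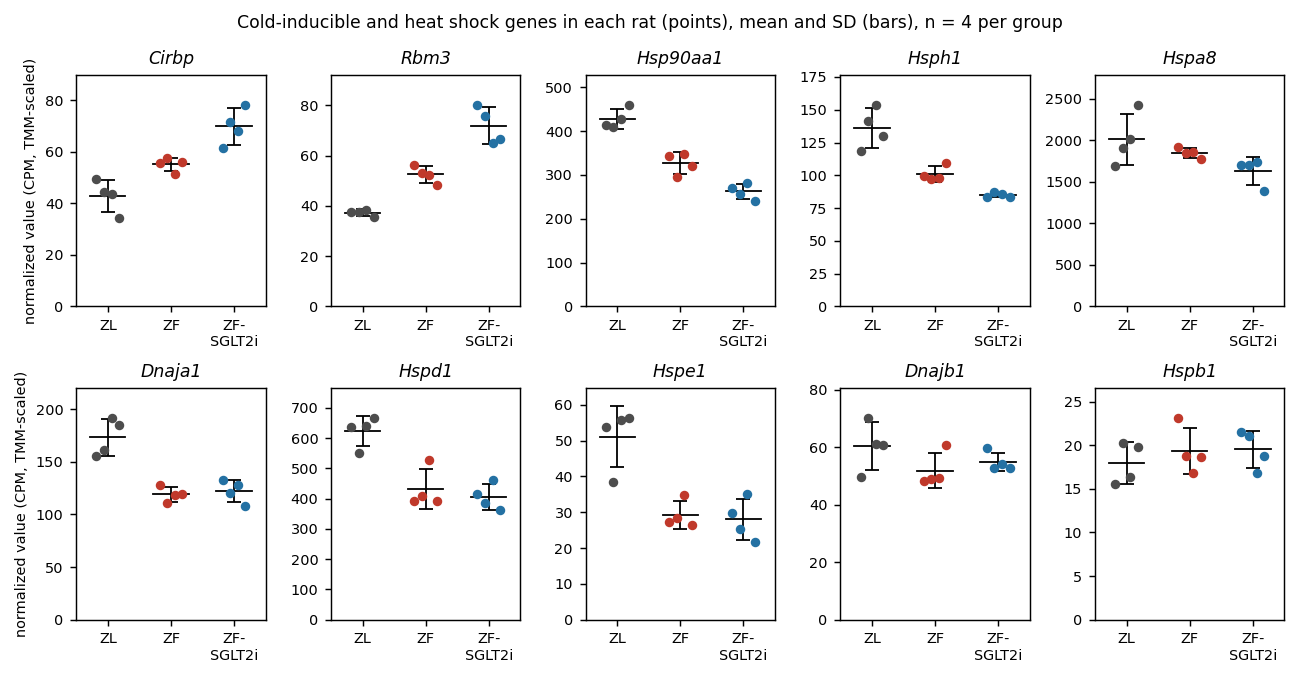
Level of each of the 10 genes (TMM-scaled CPM, linear axis from 0) in each of 12 rats, with points for rats and bars for the mean and SD of the 4 rats of a group. Cirbp and Rbm3 step up from ZL to ZF to ZF-SGLT2i, Hsp90aa1 and Hsph1 step down, and Dnaja1, Hspd1 and Hspe1 are lower in both fatty groups than in ZL.

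Hsp90aa1, the stress-inducible cytosolic Hsp90 that matures kinases and steroid receptors, showed the mirror image of this order. Its level was 415, 410, 428.9 and 460 in ZL and 344, 294, 349 and 320 in ZF. In ZF-SGLT2i it was 269.5, 257, 282 and 241.5. Every ZF rat lay below every ZL rat, and every ZF-SGLT2i rat below every ZF rat. The means were 429 ± 22.6, 327 ± 25.1 and 262 ± 17.3 (SD, n = 4 each). The log2 fold change was -0.39 (SE 0.07, adjusted p = 0.0026) in ZF against ZL.

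Hsph1 encodes Hsp110, the nucleotide exchange factor that lets Hsp70 release its client. Its level was 119, 142, 154 and 130.2 in ZL and 99.4, 96.9, 98.3 and 109.5 in ZF. In ZF-SGLT2i it was 83.6, 86.9, 85.7 and 83.5, a range narrower than in the other groups. No group overlapped another. ZF differed from ZL by a log2 fold change of -0.42 (SE 0.07, adjusted p = 0.0021).

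Hspa8 encodes the constitutive Hsc70, to which J-domain proteins deliver clients. Its level was 1694, 1907, 2009 and 2426 in ZL and 1917, 1844, 1854 and 1775 in ZF, so the ZF rats lay within the range of the ZL rats. Its log2 fold change was -0.11 (SE 0.11, adjusted p = 0.54), and under quantile normalization its sign turned (0.11). In ZF-SGLT2i the level was 1701, 1699, 1737 and 1385, each below every ZF rat.

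Of the 2 J-domain genes, Dnaja1 was called lower in ZF than in ZL and Dnajb1 was not, and the difference between them was not tested. Dnaja1, a type I Hsp40 that stimulates the ATPase of Hsp70, was at 155, 161, 191.5 and 185 in ZL and 128, 110.4, 118 and 120 in ZF. The groups did not overlap, and the log2 fold change was -0.53 (SE 0.08, adjusted p = 0.001). Dnajb1, the heat-inducible Hsp40 partner of Hsp70 in disaggregation, was at 49.6, 70.1, 61.1 and 60.7 in ZL and 48.2, 48.8, 49.3 and 60.9 in ZF. Its groups overlapped and the log2 fold change was -0.21 (SE 0.10, adjusted p = 0.15). Without ZL rat 1, the lowest of its group, the adjusted p was 0.046.

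Hspd1 and Hspe1 encode Hsp60 and Hsp10, which together form the folding chamber of the mitochondrial matrix. Hspd1 was at 636, 549, 641 and 666 in ZL and 394, 408, 529 and 391 in ZF. Hspe1 was at 53.7, 38.4, 55.8 and 56.3 in ZL and 27.3, 28.4, 34.9 and 26.3 in ZF. For both genes ZL rat 2 was the lowest lean rat and ZF rat 4 the highest ZF rat, and the groups did not overlap. Hspd1 and Hspe1 had log2 fold changes of -0.54 (SE 0.10, adjusted p = 0.0041) and -0.78 (SE 0.15, adjusted p = 0.0039). The fall of Hspe1, to 0.573 of the ZL mean, had the largest fold of the 10 genes. Once group means were removed, the 2 genes still varied together over the 12 rats (Pearson r 0.915), given as a description of rats that share a table and its scaling.

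Hspb1, which encodes the small heat shock protein Hsp27, a holdase that also binds actin, was the heat shock gene with the fewest reads, 144 to 241 per rat. Its level was 15.5, 20.3, 16.3 and 19.7 in ZL and 23.1, 18.7, 16.8 and 18.7 in ZF. The groups overlapped. ZF differed from ZL by 0.10 on the log2 scale, with a 95% interval from -0.15 to 0.35.

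**Figure D2:**
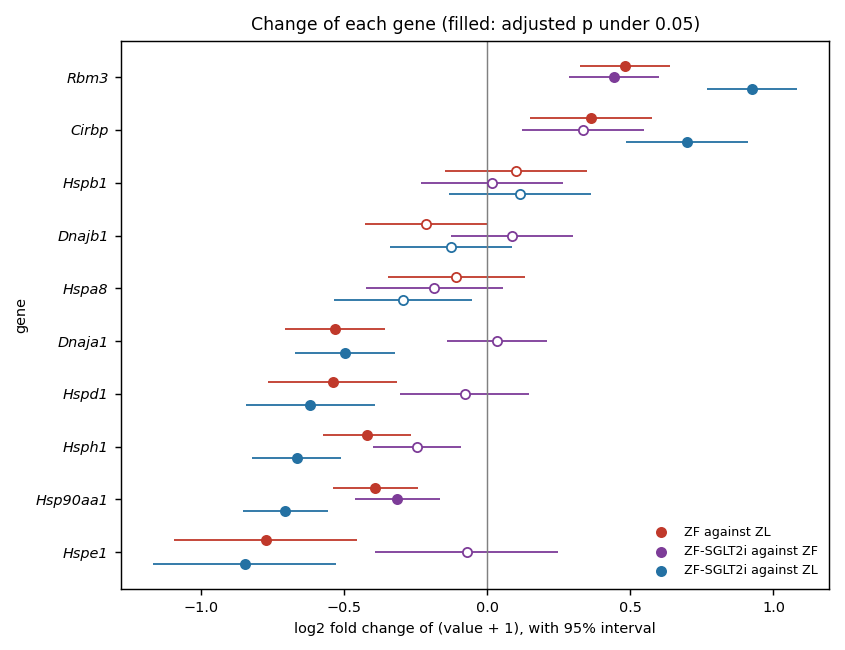
Log2 fold change of (level + 1) for each of the 10 genes in 3 comparisons, with 95% intervals from limma. Points are filled where the adjusted p was under 0.05, and the 2 cold-inducible genes lie to the right of 0 while the called heat shock genes lie to the left.

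Treatment was then compared with no treatment in ZF rats. Rbm3 was higher and Hsp90aa1 was lower in ZF-SGLT2i than in ZF, so 2 of the 10 passed the test, against 3.15% of all genes (1.39% higher and 1.75% lower). The groups did not overlap for these 2 or for Cirbp, Hsph1 and Hspa8, 5 of the 10 against 11.2% of all genes. For these 5 genes the exact permutation p was 0.0286, the smallest that 4 rats against 4 can give. Groups that do not overlap always give this value, so it adds nothing to the non-overlap. The log2 fold change of Hsp90aa1 was -0.31 (SE 0.07, adjusted p = 0.026). Leaving out 1 of 5 rats ended this call, with an adjusted p of 0.083 for ZF rat 2, 0.077 for ZF rat 4, 0.05 for ZF-SGLT2i rat 2, 0.086 for ZF-SGLT2i rat 3 and 0.085 for ZF-SGLT2i rat 6. Hsph1 had a log2 fold change of -0.25 (SE 0.07, adjusted p = 0.087) and Hspa8 one of -0.19 (SE 0.11, adjusted p = 0.43). When only the 8 rats of these 2 groups were fitted, Hsph1 (adjusted p = 0.032) and Cirbp (0.033) passed as well. This comparison shares its ZF rats with the comparison of ZF and ZL.

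The genes that were lower in ZF by the widest margins did not differ detectably with treatment. In the treated rats Dnaja1 was at 133, 120.5, 128 and 108, which differed from ZF by 0.03 on the log2 scale, with a 95% interval from -0.14 to 0.21. Hspd1 was at 414, 385, 463 and 361, a log2 fold change of -0.08 with an interval from -0.30 to 0.15. Hspe1 was at 29.8, 25.3, 35.1 and 21.7, a log2 fold change of -0.07 with an interval from -0.39 to 0.25. For Dnajb1 the interval ran from -0.13 to 0.30 and for Hspb1 from -0.23 to 0.26. Of the 8 heat shock genes, 0 were called higher with treatment by limma, edgeR or DESeq2, and 0 had an unadjusted limma p under 0.05 in that direction. With 1.39% of all genes called higher, this 0 is near the background.

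Treated fatty rats were finally set against lean rats. The same 7 of 10 genes passed, in the same directions, against 27.4% of all genes (12.4% higher and 15% lower), and their groups did not overlap, against 28% of all genes. Rbm3 was 1.93-fold higher (log2 fold change 0.92, SE 0.07, adjusted p = 4.4e-06) and Cirbp 1.63-fold higher (0.70, SE 0.10, adjusted p = 0.00032). Hsp90aa1 was at 0.612 of the ZL mean (-0.71, SE 0.07, adjusted p = 2e-05). Hsph1 was at 0.624 (-0.67, SE 0.07, adjusted p = 3.9e-05). Dnaja1 (-0.50), Hspd1 (-0.62) and Hspe1 (-0.85) were close to their differences in ZF against ZL, and the comparisons share the ZL rats. Hspa8 had a log2 fold change of -0.29 (SE 0.11) and an adjusted p of 0.065, which fell to 0.021 with DESeq2 and to 0.036 without ZL rat 1. Under quantile normalization its log2 fold change was 0.01.

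Cirbp and Rbm3 differed in how they varied between rats of a group. ZL rat 4 had the highest Hspa8 (2426) and the lowest Cirbp (34.3) of all 12 rats, and ZF-SGLT2i rat 6 had the lowest Hspa8 (1385) and the highest Cirbp (78.3). With group means removed, Pearson r of Cirbp with the 8 heat shock genes ran from -0.87 (Hspa8) to -0.06 (Hsph1). It was -0.70 with Hsp90aa1, -0.69 with Dnaja1, -0.49 with Hspd1, -0.48 with Hspe1, -0.35 with Dnajb1 and -0.33 with Hspb1. The r with Hspa8 became -0.51 over 10 rats when ZL rat 4 and ZF-SGLT2i rat 6 were left out, a choice made after seeing the data. Among the ZF rats alone, Cirbp did not fall in step with Hspa8. For Rbm3 the same r ran from -0.11 (Dnajb1) to 0.48 (Hspb1), and its r with Cirbp was -0.09. These are descriptions over rats that share a table and its scaling.

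**Figure D3:**
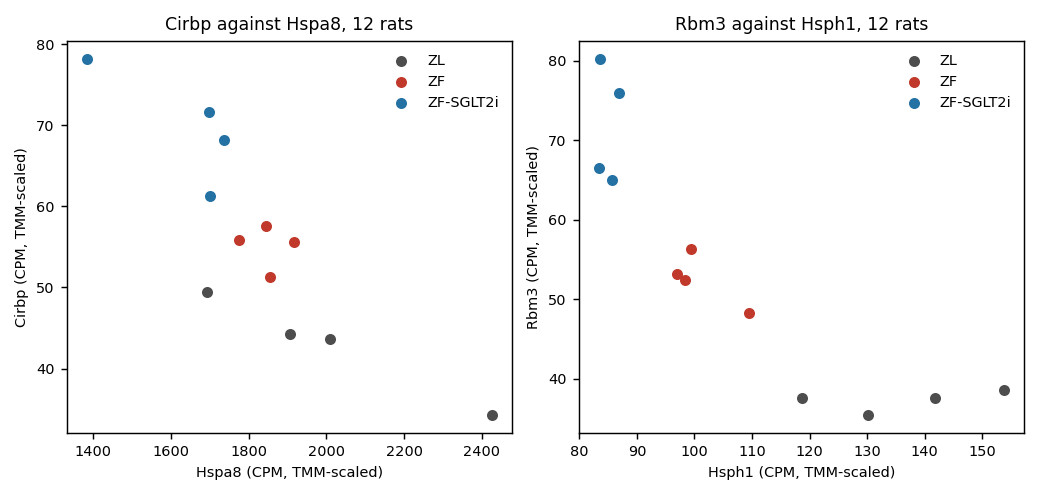
Level of Cirbp against Hspa8 (left) and of Rbm3 against Hsph1 (right) in each of 12 rats, both axes in TMM-scaled CPM and not starting at 0. On the left, ZL rat 4 (2426, 34.3) and ZF-SGLT2i rat 6 (1385, 78.3) lie at the ends and the ZF rats show no slope, and on the right the 3 groups lie apart.

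The 5 genes whose log2 levels followed Cirbp most closely over the 12 rats, among 8630 genes with a mean level of at least 10, were Kdm5b, Spint1, Zer1, Fam117a and Plekhd1. Their Pearson r ran from 0.96 to 0.98, and r with group means removed was highest for Kdm5b, at 0.955. The 5 closest to Hsph1 were Plcb1, Col4a3, Gmeb1, Rasa2 and Fkbp4, with r of 0.95 to 0.96. Fkbp4, which encodes an Hsp90 co-chaperone, was the one chaperone gene among these 10. Its r within groups was 0.52.

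The rest of the chaperone system was described from lists that leave out the 10 genes. Of 70 genes listed, 66 were tested. In ZF against ZL, 20 were called lower and 1 higher, 31.8% of those tested against 18.8% of all genes. In ZF-SGLT2i against ZL, 30 were called lower and 3 higher, 50% against 27.4%. In ZF-SGLT2i against ZF, 1 was called lower and 1 higher, 3.03% against 3.15%, which is the share of all genes. Their median log2 fold change was -0.15 for ZF against ZL, -0.20 for treated against lean rats and -0.04 for treated against untreated ZF rats, beside -0.01, -0.00007 and 0.01 for all genes.

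Among the regulators, Hsf1, which encodes the main heat shock transcription factor, had means of 24.4 ± 1.43, 23.3 ± 2.89 and 23.9 ± 2.32 in ZL, ZF and ZF-SGLT2i (SD, n = 4 each). It was not called in any comparison, with adjusted p-values of 0.66, 0.89 and 0.83. Hsf2, a related factor active in development, was lower in ZF-SGLT2i than in ZL (-0.27, adjusted p = 0.04). Hsbp1, which encodes a small protein that binds the trimer of HSF1, was lower in ZF (-0.31, adjusted p = 0.028) and in ZF-SGLT2i (-0.34, adjusted p = 0.012) than in ZL.

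The Hsp90 machinery was lower in fatty rats in most of its listed genes. Of 12 tested, 7 were called lower in ZF (58.3%, with 10.6% of all genes) and 8 in ZF-SGLT2i (66.7%, with 15% of all genes), both against ZL. In ZF-SGLT2i against ZF limma called 0 of the 12, near the 3.15% of all genes. Hsp90ab1, the constitutive cytosolic Hsp90, fell from 969 ± 34.1 in ZL to 812.5 ± 35.7 in ZF (-0.25, adjusted p = 0.015) and was 759 ± 37.7 in ZF-SGLT2i (SD, n = 4 each). Fkbp4, the co-chaperone of steroid receptors, fell from 201 ± 18.3 to 156 ± 6.91 (-0.37, adjusted p = 0.0031). Ahsa2, which encodes a relative of the Hsp90 ATPase activator, had the largest fall in ZF (-0.50, adjusted p = 0.045), with ranges that overlapped.

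Of the folding machines beyond Hsp90, the cytosolic chaperonin TRiC had 3 of 8 subunit genes called lower in ZF (37.5%) and 5 of 8 in ZF-SGLT2i (62.5%), both against ZL, where 10.6% and 15% of all genes were called lower. Its subunit gene Cct6a fell most (-0.48, adjusted p = 0.0052). Of 9 other mitochondrial chaperones and proteases, 4 were called lower in ZF (44.4%, with 10.6% of all genes) and 5 in ZF-SGLT2i (55.6%, with 15%). They included Hspa9, the matrix Hsp70 that pulls in precursors (646 ± 36.8 in ZL and 509.7 ± 45.1 in ZF, -0.34, adjusted p = 0.011), and Clpx, the unfoldase of the ClpXP protease (-0.58, adjusted p = 0.001). The other J-domain genes and the Hsp70 co-chaperones stood near the background in ZF. Of 12 J-domain genes, 1 was called lower in ZF (8.33%, with 10.6% of all genes) and 4 in ZF-SGLT2i (33.3%, with 15%). Dnajb5 had the largest fall in both (-0.58, adjusted p = 0.001, and -0.87, adjusted p = 2.5e-05). Of 8 Hsp70 co-chaperone genes, 1 was called lower in ZF (12.5%, with 10.6% of all genes), which was St13, encoding Hip (-0.45, adjusted p = 0.009). In ZF-SGLT2i 4 were called lower (50%, with 15%). Bag3, which encodes a partner of Hsp70 in selective autophagy and is itself heat-inducible, was lower in ZF-SGLT2i than in ZL (-0.39, adjusted p = 0.012). In ZF against ZL its log2 fold change was -0.29 (adjusted p = 0.059).

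The Hsp70 family did not move one way. Hspa1a and Hspa1b encode the same stress-inducible Hsp70 and are near-identical copies, so reads may be split between them and their separate levels are uncertain. Hspa1b was at 60.8, 94.2, 67.9 and 53.7 in ZL, at 80.2, 83.4, 68.7 and 115 in ZF and at 129, 122, 117 and 103 in ZF-SGLT2i. Each treated rat lay above each lean rat, while ZF overlapped both. Hspa1b was called higher in ZF-SGLT2i than in ZL (0.79, SE 0.16, adjusted p = 0.0037), as was Hspa1a (0.79, SE 0.20, adjusted p = 0.012). Neither was called in ZF against ZL (adjusted p = 0.18 and 0.24) or in ZF-SGLT2i against ZF (0.16 and 0.31). So the inducible Hsp70 genes were higher, and Hsp90aa1, Hsph1 and Dnaja1 lower, in the same treated rats.

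Hspa12a, which encodes a distant member of the Hsp70 family, was lower at each step. Its level was 161, 137, 126 and 144 in ZL, 96.0, 101, 109 and 91.6 in ZF and 65.8, 81.1, 80.7 and 70.2 in ZF-SGLT2i. No group overlapped another, and all 3 comparisons passed: -0.51 (adjusted p = 0.0021) in ZF against ZL, -0.42 (0.021) in ZF-SGLT2i against ZF and -0.92 (1.5e-05) in ZF-SGLT2i against ZL. Its relative Hspa12b, known from endothelium, was called higher in ZF than in ZL (0.39, adjusted p = 0.049). The 8 endothelial markers, with Kdr the most abundant and none at 0 throughout a group, summed to 724, 867 and 834 in ZL, ZF and ZF-SGLT2i, and 1 of them was called higher in ZF than in ZL (12.5%, with 8.19% of all genes). Their part in the Hspa12b difference was not tested. Hspa4l, an Hsp110 relative of Hsph1, was called lower in ZF (-0.35, adjusted p = 0.013).

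**Figure D4:**
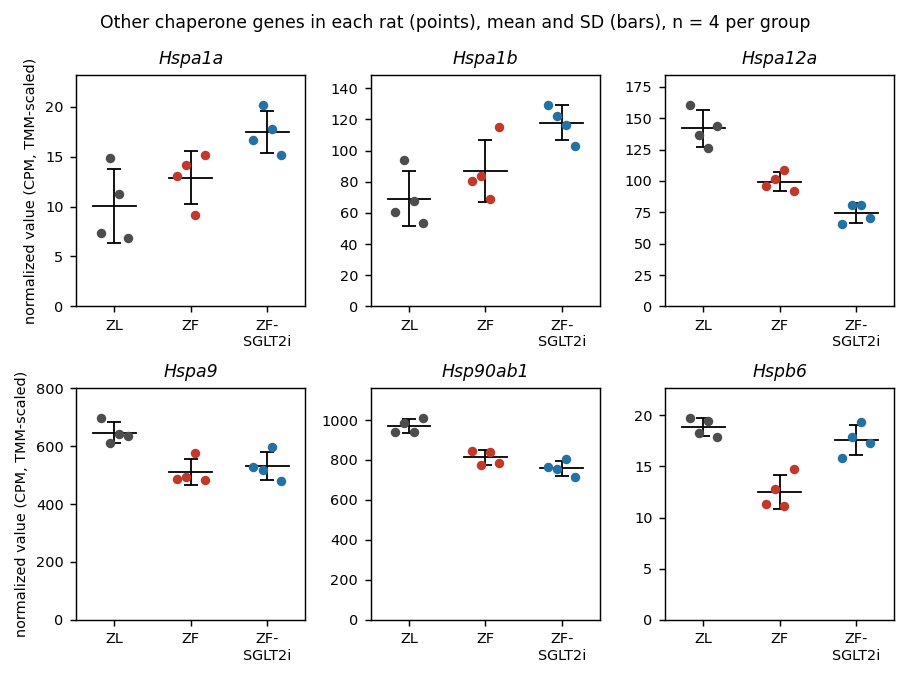
Level of 6 other chaperone genes (TMM-scaled CPM, linear axis from 0) in each of 12 rats, with the mean and SD of the 4 rats of a group. Hspa1a and Hspa1b are highest in ZF-SGLT2i, Hspa12a is lower at each step, Hspa9 and Hsp90ab1 are lower in both fatty groups, and Hspb6 is low in ZF alone.

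Among the other small heat shock proteins, Hspb6, which encodes Hsp20 of muscle and vessel wall, was the one chaperone gene of the lists called higher in ZF-SGLT2i than in ZF. It was at 19.7, 18.3, 19.5 and 17.9 in ZL, 11.3, 12.8, 11.1 and 14.8 in ZF and 15.8, 17.9, 19.3 and 17.3 in ZF-SGLT2i. The ZF rats lay below all others. The log2 fold change was -0.56 (adjusted p = 0.0019) in ZF against ZL and 0.46 (adjusted p = 0.018) in ZF-SGLT2i against ZF. The 8 smooth muscle and pericyte markers, with Pdgfrb the most abundant, summed to 273, 382.5 and 267 in ZL, ZF and ZF-SGLT2i. Of these, 2 were called higher in ZF than in ZL (25%, with 8.19% of all genes). In ZF-SGLT2i against ZF, 2 were called lower (25%, with 1.75% of all genes). Their part in the Hspb6 differences was not tested. Cryab, which encodes αB-crystallin, ranged from 27.9 to 135.7 among the ZL rats and was not called (adjusted p = 0.26 in ZF against ZL).

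**Figure D5:**
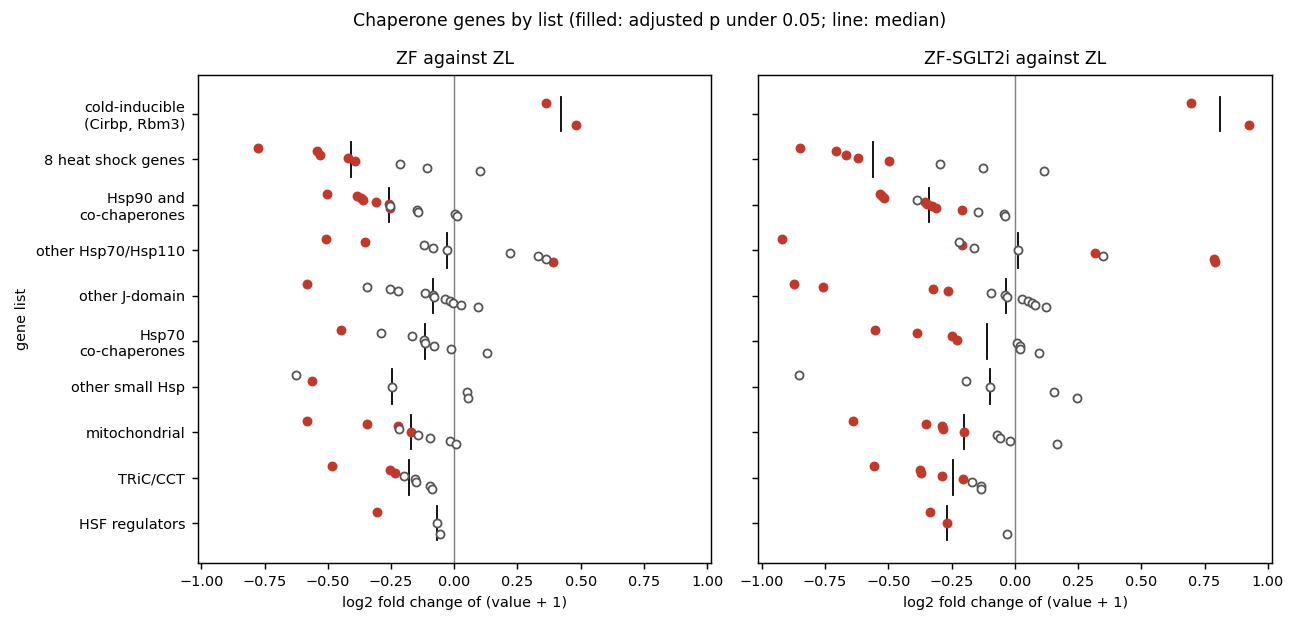
Log2 fold change of (level + 1) of the chaperone genes by list, ZF against ZL on the left and ZF-SGLT2i against ZL on the right, with filled points for an adjusted p under 0.05 and a line at each list's median. The 2 cold-inducible genes lie on the right, and most called genes of the other lists lie on the left, with Hspa1a and Hspa1b among the exceptions.

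Genes of other systems moved between the same groups. Of 13 clock genes tested, 8 were called higher and 3 lower in ZF than in ZL (84.6%, with 18.8% of all genes). In ZF-SGLT2i against ZF limma called 0 of the 13, where 3.15% of all genes were called, so the 0 is near the background. Arntl, which encodes the clock activator BMAL1, ranged from 30.4 to 51.4 among lean rats, from 1.42 to 7.01 among ZF rats and from 1.82 to 2.86 among treated rats. Dbp, a clock output gene, went the other way, with means of 40.7 ± 17.6, 254 ± 52.0 and 297 ± 31.7 (SD, n = 4 each). Per2 (1.20, adjusted p = 0.0023) and Nr1d1 (0.88, adjusted p = 0.012), both clock repressors, were higher in ZF than in ZL, and Per1 was called only in ZF-SGLT2i against ZL (adjusted p = 0.027). The hour at which each rat was killed is not given in the sources used here. Cirbp, Rbm3 and several heat shock genes are known to vary over the day, and the part of clock phase in their differences was not tested.

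Immediate early genes, which respond within minutes to stimulation and handling, were called higher for 5 of 12 in ZF (41.7%, with 8.19% of all genes) and 7 of 12 in ZF-SGLT2i (58.3%, with 12.4%), both against ZL. Fos had means of 8.00 ± 4.32, 17.9 ± 3.76 and 27.0 ± 8.98 in ZL, ZF and ZF-SGLT2i (SD, n = 4 each). Egr1 was called in ZF-SGLT2i against ZL (1.12, adjusted p = 0.03), and Jun was not called in any comparison. The summed level of 10 proximal tubule markers was 26650, 21740 and 20540, with Lrp2 the most abundant of them (10740, 7835 and 6440). Of these 10 markers 3 were called lower and 2 higher (Pck1 and Slc22a6) in ZF than in ZL, 50% with 18.8% of all genes, and Lrp2 was not called (adjusted p = 0.073). The 10 injured tubule markers summed to 853 ± 65.1, 1765 ± 680 and 1499 ± 335 (SD, n = 4 each). Spp1 was the most abundant of them in ZF and ZF-SGLT2i, and Cd24 in ZL. Against ZL, 7 of these 10 were called higher in ZF (70%, with 8.19% of all genes), and in ZF-SGLT2i 7 were called higher and 1 lower (80%, with 27.4%). The wide spread in ZF followed Spp1, at 1473 and 1056 in ZF rats 2 and 4 and at 410.5 and 312.8 in ZF rats 3 and 5. The 8 podocyte markers summed to 1433, 1856 and 1893, with Podxl the most abundant and 5 called higher in ZF than in ZL (62.5%, with 8.19% of all genes). The 6 fibroblast markers summed to 494, 606 and 350, with Pdgfra the most abundant in ZL and ZF-SGLT2i and Col3a1 in ZF. Of 5 tested, 3 were called lower in ZF-SGLT2i than in ZF (60%, with 1.75%). The 8 collecting duct markers summed to 1680, 1830 and 2463, with Aqp2 the most abundant in ZF and ZF-SGLT2i and Slc4a1 in ZL. Of these, 5 were called higher in ZF-SGLT2i than in ZL (62.5%, with 12.4%). No marker of these 5 lists was at 0 in all rats of a group. Ribosomal RNA genes took between 7.25% and 12.0% of the reads of lean rats, between 8.82% and 12.0% of those of ZF rats and between 11.5% and 15.2% of those of treated rats. The part of each in the differences of the 10 genes was not tested.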

How the data were processed

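Paired-end libraries of ribosomal RNA-depleted renal cortex RNA were sequenced from 12 rats. The authors deposited 1 table of signal values, each a whole read count times a constant for the rat, which matched CPM with TMM factors. All values were whole reads within 0.001 read. The submitters' processing notes name Trimmomatic 0.38, RSEM 1.3.0, Bowtie2, edgeR and build rn6.

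A gene was tested if 4 or more rats had a value of 1 or more, which left 11633. The test was limma (version 3.58.1, under R version 4.3.3) on log2 values with a pseudocount of 1, the 3 groups together, with eBayes and its trend option, two-sided, at an adjusted p under 0.05. The code was tested on simulated data. Single genes were compared by exact permutation of 70 assignments. Alternatives used edgeR 4.0.16 and DESeq2 1.42.0 on the recovered counts. The 10 genes, the lists and the rule for named genes (regulators and stated relatives, and the largest called rise and fall of each list and comparison) were chosen with earlier results of these data known. Promoter sequences came from RefSeq. Reads shared with pseudogenes or near-identical copies could not be separated, and intervals cover the spread between rats only.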

Additional observations from a re-analysis of the deposited data

Results flagged for a closer look

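Of 111 groups of 4 rats examined, 8 held a rat that stood apart from the other 3 by Dixon's test at its 95% critical value, where chance gives about 1 in 20, or 5.55. Hspa8 was 1385 in ZF-SGLT2i rat 6 while its group otherwise ran from 1699 to 1737. Dnajb1 was 60.89 in ZF rat 5 and 48.23 to 49.31 in the others. Hspe1 was 38.4 in ZL rat 2 while the other lean rats ran from 53.66 to 56.28. ZF rat 4 stood above its group in 3 mitochondrial genes: Hspd1 was 528.7 against 391.1 to 407.6, Hspa9 was 577 against 482.9 to 493.8, and Clpx was 97.26 against 76.67 to 79.97. Cryab was 43.05 in ZF rat 2 and 33.78 to 34.27 in the others, and Jun was 154.7 in ZF rat 3 and 184.2 to 187.1 in the others.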

How the results depend on the processing

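Over 660 alternative values of the 10 genes' fold changes, 631 kept their direction and their side of the threshold, 9 lost the call, 10 gained it and 10 changed sign, each in a comparison without a call. Of the 7 genes called in ZF against ZL, 6 kept the call in every alternative, Cirbp being the exception. With a rat left out, the 10 genes held 6 to 8 calls in ZF and 7 to 8 in treated rats, both against ZL. Between treated and untreated ZF rats the 2 calls became 4 with only the 2 groups fitted and with DESeq2, 1 with the replicate block, and 1 to 3 with a rat left out. Rat numbers 2, 3 and 4 occur in more than 1 group, but same-numbered rats did not all deviate together (r -0.38 to 0.25), so the block has no basis in the design. With it, Hsp90aa1 lost its call in ZF-SGLT2i against ZF (adjusted p = 0.11) and Dnajb1 gained one in ZF against ZL (log2 fold change -0.38, adjusted p = 0.023). Genes called numbered 2185 in ZF against ZL, 807 with the replicate block and 1384 (without ZL rat 1) to 2453 with a rat left out. In ZF-SGLT2i against ZF there were 366, 223 with the block, 689 with array quality weights, 639 with DESeq2 and with a rat left out from 176 (ZF-SGLT2i rat 3) to 569 (ZF rat 5). In ZF-SGLT2i against ZL there were 3184, and 1502 with the block. The causes were not tested. Log2 fold changes that changed sign were those of Hspa8 under quantile normalization (0.11 for ZF and 0.0074 for ZF-SGLT2i, both against ZL) and, for treated against untreated ZF rats, those of Dnaja1 (-0.0013 without ZF rat 3, -0.0068 without ZF-SGLT2i rat 2), Hspb1 (-0.046 without ZF rat 4, -0.033 without ZF-SGLT2i rat 2, -0.021 without ZF-SGLT2i rat 3), Hspd1 (0.023 without ZF rat 4) and Hspe1 (0.012 without ZF rat 4, 0.037 without ZF-SGLT2i rat 6). With a rat left out, these ran from -0.0068 to 0.092 for Dnaja1, from -0.046 to 0.099 for Hspb1, from -0.14 to 0.023 for Hspd1 and from -0.19 to 0.037 for Hspe1. With 4 rats per group, small differences in ZF-SGLT2i against ZF may lie below what the test can call.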
